A study of Mus musculus with 5 samples.

Results

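The genes that lie beside Mkl2 on mouse chromosome 16 were compared between wild-type and Mkl2-/- embryonic stem cells. They are 9 named neighbours, Gspt1, Snx29, Cpped1, Shisa9 and Ercc4 on the centromere (proximal) side and Parn, Pla2g10, Rrn3 and Mpv17l on the telomere (distal) side. Every array feature whose platform annotation gave exactly 1 symbol, that symbol being one of these, was taken. This gave 10 features for the 9 genes, out of 35556 features and 19938 named genes; Snx29 has 2 features and each other member has 1. The members were chosen by their place next to Mkl2 and by their log2 differences between the genotypes, which were already known, so those differences are given as a description, without a test.

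RNA came from undifferentiated embryonic stem cells of C57BL/6 mice, 2 cultures wild type and 3 Mkl2-/-, hybridised to 1 Affymetrix whole-transcript array each. All cultures grew with serum, leukaemia inhibitory factor and a feeder layer of mouse embryonic fibroblasts, which were largely removed by attachment before lysis. The cultures are called independent in the design text, but the sources used here give neither how many cell lines they represent nor how the mutant allele was built, so p-values measure the spread between cultures. Values are log2 expression, and every difference is the Mkl2-/- mean less the wild-type mean, with its standard error from a limma fit over all named genes (n = 2 and 3).

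Mkl2 (current symbol Mrtfb) encodes a myocardin-related transcription factor that binds serum response factor (SRF) and is released to the nucleus when cytoplasmic actin monomers become scarce. Its neighbours are not a family: they serve translation, DNA repair, RNA turnover, lipid release and ribosomal RNA synthesis, and what they have in common is their place. Genes next to an altered locus are of interest because they sit in the same stretch of chromatin and are inherited with it.

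The target itself was lower on all 3 Mkl2-/- arrays. The wild-type arrays read 9.80 and 9.75 in feature 10433633 of Mkl2, against 9.32, 9.32 and 9.09 on the Mkl2-/- arrays. Feature 10433639 read 9.62 and 9.78 against 8.94, 8.81 and 8.86, and feature 10433656 read 9.76 and 9.92 against 8.99, 8.89 and 8.71. No feature had overlapping groups, and all stayed far above the background level of 7.30, which is the 95th percentile of the mean levels of 1027 olfactory receptor genes. In the limma fit of all 35556 features the differences were -0.53 ± 0.09 (adjusted p = 0.067), -0.83 ± 0.069 (adjusted p = 0.021) and -0.98 ± 0.11 (adjusted p = 0.031). For feature 10433633, fits of all features after cyclic loess or quantile normalization gave a limma adjusted p of 0.029. In the fit of named genes, where this feature stands for Mkl2, its adjusted p was 0.048. Both features past the threshold in the fit of all features lost their call with any single array left out. In that latter fit 5.35% of all features passed an adjusted p of 0.05. The sources used here do not say whether these features lie in the altered part of Mkl2, so they check neither the deletion nor its size.

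Across the table, 1848 of 19938 genes (9.27%) passed an adjusted p of 0.05 in the limma fit of named genes, 2.99% higher and 6.28% lower; after a further quantile normalization 1254 were higher and 1652 lower. The arrays of the groups did not overlap in 33.6% of genes. Without wild-type replicate 2 no gene passed in limma (4411 at an unadjusted p under 0.05), so each call given here was lost without that array. Pairs of arrays held the same value to 2 decimals in 15.5% to 27.5% of genes, and the highest share was between wild-type replicate 1 and Mkl2-/- replicate 1, across the groups. All 10 stem cell markers examined lay above background on every array. Their mean level was 11.571 and 11.58 in wild type and 11.556 to 11.621 in Mkl2-/-. This mean hides opposite moves, as 4 of the 10 passed the limma test, against 9.27% of all genes. Nanog fell (-1.14 ± 0.066, limma adjusted p = 0.0082), while Fgf4 (0.67 ± 0.056), Dppa5a (0.49 ± 0.065) and Utf1 (0.39 ± 0.051) rose. The similar means thus do not show an equal stem cell state. Of 13 fibroblast markers, which follow carried-over feeder cells, 10 lay above background on each array. The mean level of all 13 was 7.672 and 7.682 in wild type and 7.577 to 7.632 in Mkl2-/-. Of these markers 1 rose and 1 fell in limma (15.4%, against 9.27% of all genes). The median difference of these markers was -0.058, against 0.02 over all named genes. Their part in the differences below was not tested, and in such bulk RNA fewer cells of a type and less RNA per cell cannot be told apart.

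The members split by side. On the proximal side the 5 differences lay between -0.10 and 0.125 and the groups overlapped in each gene. On the distal side 3 of 4 members were higher in Mkl2-/-, by 0.24 to 0.935, with no overlap between the groups, while Parn, the one nearest to Mkl2, overlapped. The median difference was 0.013 over the proximal members and 0.293 over the distal ones, against 0.02 over all named genes. In counts, 3 of 9 members were higher with groups that did not overlap (16.9% over all genes). Since the contrast entered their choice, nothing is read from this count or from the side medians. All 9 members lay above background.

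**Figure D1:**
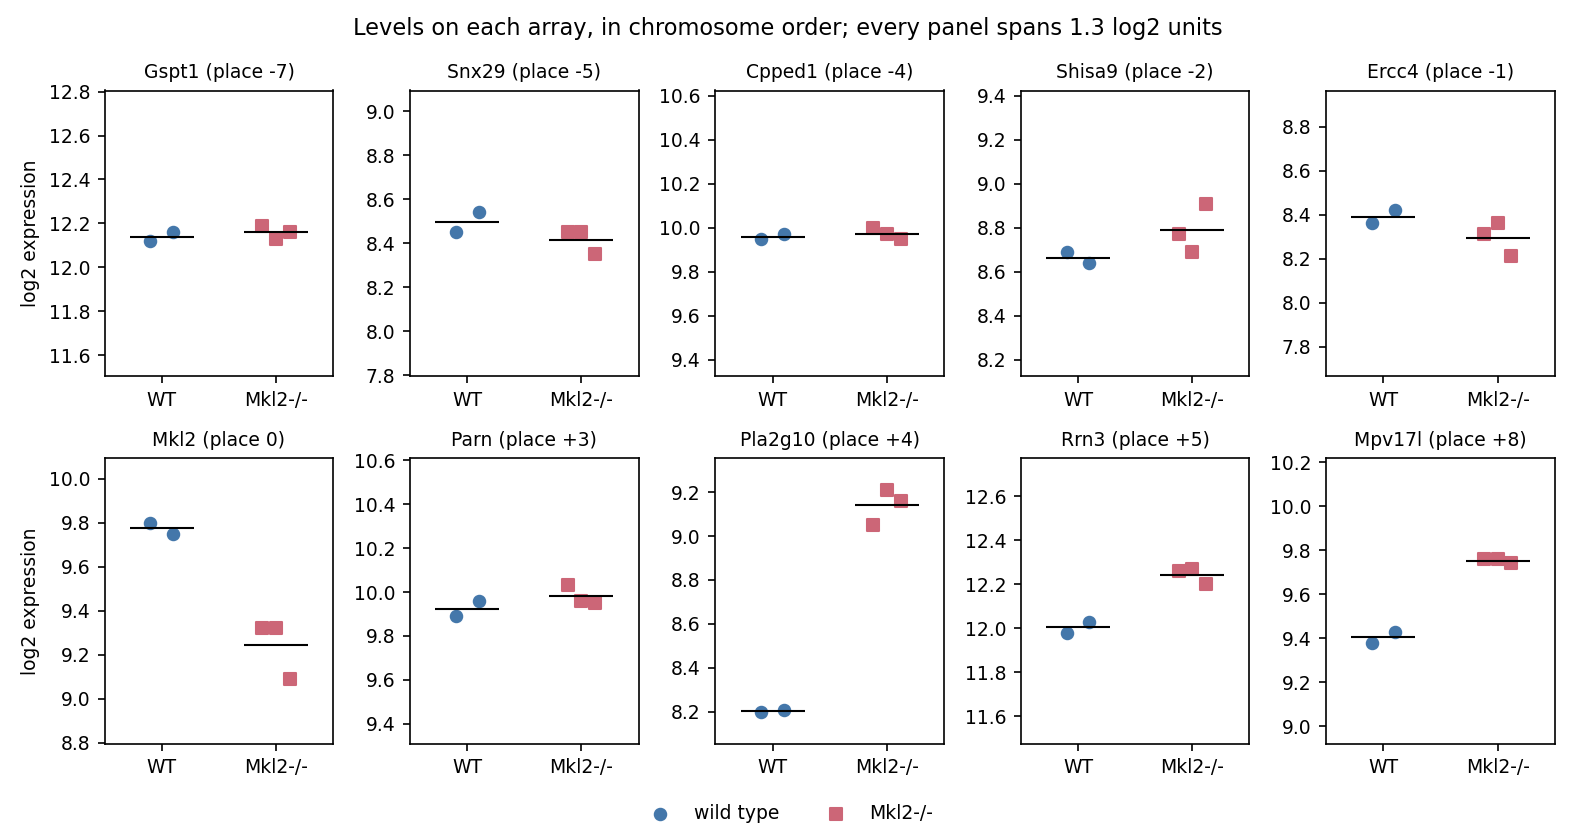
Log2 expression of the 9 members and Mkl2 (feature 10433633) on each array, in chromosome order, for 2 wild-type arrays (circles) and 3 Mkl2-/- arrays (squares); lines are group means, and each panel spans the same range of log2 units around its own values. The groups overlap in the 5 proximal members and in Parn, and lie apart in Mkl2, Pla2g10, Rrn3 and Mpv17l.

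Proximal members are given from the far end towards Mkl2. Gspt1 encodes the translation release factor eRF3a, the GTPase that helps ribosomes let go of a finished protein. Wild-type arrays read 12.12 and 12.16 and Mkl2-/- arrays 12.19, 12.13 and 12.16, a difference of 0.02 ± 0.025. All 5 arrays lay within a few hundredths of each other, and without single arrays the difference ran from 0 to 0.04.

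Snx29 encodes a member of the sorting nexins, proteins that bind phosphoinositides on endosomes. Its brighter feature 10433597 read 8.45 and 8.54 on the wild-type and 8.45, 8.45 and 8.35 on the Mkl2-/- arrays, a difference of -0.08 ± 0.049. The other feature, 10433589, read 8.05 and 8.0 against 8.05, 8.12 and 8.05, a difference of 0.05 ± 0.034. The features thus leaned in opposite directions, each with overlapping groups, and their mean differed by -0.015.

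Cpped1 encodes a calcineurin-like phosphatase that acts on AKT. Wild-type arrays read 9.95 and 9.97 and Mkl2-/- arrays 10.00, 9.97 and 9.95, a difference of 0.013 ± 0.02. Both wild-type values recur exactly among the Mkl2-/- arrays.

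Shisa9 encodes an auxiliary subunit of AMPA-type glutamate receptors, known from brain synapses. Wild-type arrays read 8.69 and 8.64 and Mkl2-/- arrays 8.77, 8.69 and 8.91, a difference of 0.125 ± 0.075. This was the largest proximal difference, yet Mkl2-/- replicate 2 equalled wild-type replicate 1. Without Mkl2-/- replicate 3, the highest array, it was 0.065.

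Ercc4, the measured gene next to Mkl2 on this side, encodes XPF, the nuclease that with ERCC1 cuts damaged strands in nucleotide excision repair. Wild-type arrays read 8.36 and 8.42 and Mkl2-/- arrays 8.31, 8.36 and 8.21, a difference of -0.10 ± 0.055. Mkl2-/- replicate 2 again equalled wild-type replicate 1, so the groups touched.

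Promoter sequence is shown for the distal members at the step from Parn, whose groups overlapped, to Pla2g10 and Rrn3, whose groups did not. Each line holds the 250 bases before the RefSeq start site (GRCm38.p6), read 5′ to 3′ along the gene's strand, with CG dinucleotides, the sites of most DNA methylation in mammals, in capitals. The stretch of Parn lies at chr16:13668171-13668420 on the minus strand, that of Pla2g10 at chr16:13730485-13730734 on the minus strand and that of Rrn3 at chr16:13780449-13780698 on the plus strand.
Parn: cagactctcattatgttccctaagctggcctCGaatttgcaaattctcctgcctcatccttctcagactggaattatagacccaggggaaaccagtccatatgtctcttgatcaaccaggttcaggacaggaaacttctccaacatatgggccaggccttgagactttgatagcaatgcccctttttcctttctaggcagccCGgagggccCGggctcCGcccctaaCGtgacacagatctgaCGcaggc
Pla2g10: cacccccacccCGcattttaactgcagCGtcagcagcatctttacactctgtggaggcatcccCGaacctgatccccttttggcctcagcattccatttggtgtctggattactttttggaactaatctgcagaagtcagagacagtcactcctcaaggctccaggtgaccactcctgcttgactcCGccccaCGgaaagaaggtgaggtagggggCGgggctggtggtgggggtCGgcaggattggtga
Rrn3: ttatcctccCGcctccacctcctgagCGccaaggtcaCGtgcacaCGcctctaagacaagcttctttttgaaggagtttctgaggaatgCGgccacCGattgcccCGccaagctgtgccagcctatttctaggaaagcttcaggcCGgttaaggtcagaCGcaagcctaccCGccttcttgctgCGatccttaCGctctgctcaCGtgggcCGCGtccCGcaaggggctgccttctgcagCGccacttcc

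These stretches hold 6 CG dinucleotides in Parn, 7 in Pla2g10 and 17 in Rrn3, and the median of all 32851 RefSeq promoter windows over the same 250 bases is 6. Higher levels were thus seen beside a promoter near that median (Pla2g10; 57.0% of windows hold as few or fewer) and beside one above it (Rrn3; 78.3%). CG counts were looked at after the differences were known. A CArG box, the SRF binding motif with any A or T in its core, was searched on both strands of the full windows, which add 50 bases after the start. It was found in 0 of 7 windows of the 6 members that have one and in 0 of 3 windows of Mkl2, against 1.63% of all windows. At so low a share, so few windows would rarely hold a box, so nothing is read from these counts. Among the nearby non-members described below, 28 genes have a window, and 2 windows held a box, those of Tnfrsf17 and Prm1. Cpped1, Shisa9 and Mpv17l were not matched in the promoter table.

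Parn encodes the poly(A)-specific ribonuclease, which trims the tails of messenger and small RNAs. Wild-type arrays read 9.89 and 9.96 and Mkl2-/- arrays 10.03, 9.96 and 9.95, a difference of 0.055 ± 0.038. The wild-type replicate 2 value lay inside the Mkl2-/- range.

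Pla2g10, the next measured gene, encodes a secreted phospholipase A2 that frees fatty acids such as arachidonic acid from phosphatidylcholine. Wild-type arrays read 8.20 and 8.21 and Mkl2-/- arrays 9.05, 9.21 and 9.16, a difference of 0.935 ± 0.055, or 1.91-fold. The gap between the groups was several times the spread within either, where the wild-type arrays were 0.01 apart and the Mkl2-/- arrays spanned 0.16. This is the 26th largest positive difference among the 13564 genes above background, and the 3rd largest absolute difference among the 422 such genes of chromosome 16. Since this difference entered the choice of the gene, nothing is read from these ranks.

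Rrn3 encodes TIF-IA, the factor that makes RNA polymerase I able to start on ribosomal RNA genes and couples this to growth signals. Wild-type arrays read 11.98 and 12.03 and Mkl2-/- arrays 12.26, 12.27 and 12.20, a difference of 0.24 ± 0.031, or 1.18-fold. Every Mkl2-/- array lay above both wild-type arrays, although 2255 genes above background, Rrn3 included, differed by as much or more.

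Mpv17l, the outermost distal member, encodes a relative of the mitochondrial inner membrane protein Mpv17 that is linked to the handling of reactive oxygen species. Wild-type arrays read 9.38 and 9.43 and Mkl2-/- arrays 9.76, 9.76 and 9.74, a difference of 0.35 ± 0.02, or 1.27-fold. Its Mkl2-/- arrays were the tightest of the 3 separated members, 0.02 apart.

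**Figure D2:**
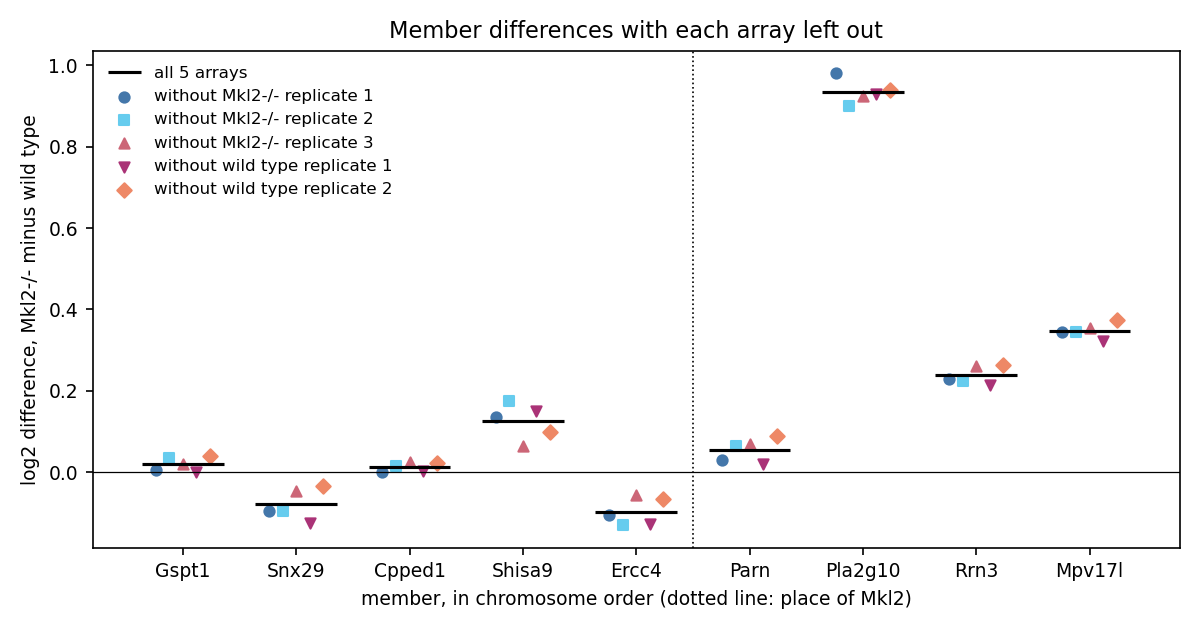
Log2 difference (Mkl2-/- minus wild type) of each member in chromosome order, with all 5 arrays (line) and with each array left out (symbols). Pla2g10 stays between 0.90 and 0.98, Mpv17l between 0.32 and 0.37 and Rrn3 between 0.21 and 0.26, whereas the proximal members and Parn stay between -0.13 and 0.175.

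Genes between the outermost members that are not members themselves are given next. Members were chosen partly by their differences, so the genes left over cannot show whether the distal differences were shared by the stretch. There are 6 measured ones, of which 0 passed the limma test, against 9.27% of all genes, and 1 had an unadjusted p under 0.05. The groups did not overlap in 3 of the 6 (33.6% over all genes), all on the distal side, where 4 were measured. Ntan1, which encodes an amidase of the protein degradation pathway for N-terminal asparagine, lies between Rrn3 and Mpv17l. Wild-type arrays read 10.31 and 10.41 and Mkl2-/- arrays 10.53, 10.72 and 10.81, a difference of 0.33 ± 0.10 (limma adjusted p = 0.16). All 3 Mkl2-/- arrays were above wild type, but they were 0.28 apart, and the gene passed the test after quantile normalization (adjusted p = 0.049).

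Pdxdc1, which encodes a pyridoxal-dependent decarboxylase domain protein and lies between Ntan1 and Mpv17l, read 10.95 and 11.02 on the wild-type and 10.90, 10.93 and 10.92 on the Mkl2-/- arrays. Its difference of -0.07 ± 0.027 (limma adjusted p = 0.26) had the opposite sign to both of its measured neighbours. It was -0.10 without wild-type replicate 1 and -0.03 without wild-type replicate 2.

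Close to Mkl2 on the distal side, the microRNA gene Mir365-1 lay below background (6.81 and 6.38 in wild type; 6.86, 6.86 and 6.96 in Mkl2-/-). The long noncoding RNA gene 2310015D24Rik differed by -0.05 ± 0.047 (limma adjusted p = 0.52). On the proximal side, Tnfrsf17, a receptor gene of antibody-producing cells, was below background on all arrays, and the noncoding gene Gm9961 differed by 0.06 ± 0.0495 (limma adjusted p = 0.47). None of these genes passed the test. Mir365-1 and Tnfrsf17 lay below background and Gm9961 little above it, so they cannot show whether the stretch beside Mkl2 was unchanged.

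Beyond the members, 20 further measured genes were examined on each side. On the proximal side 1 of 20 rose and none fell: Tekt5, which encodes a tektin of sperm flagella, read 7.66 and 7.71 on the wild-type and 8.06, 8.17 and 8.19 on the Mkl2-/- arrays (0.455 ± 0.05, limma adjusted p = 0.021). It stood 26 measured genes from Mkl2, past 18 genes between it and Gspt1 that did not pass. The next smallest p-values there belonged to Prm1 (0.05 ± 0.017), the endosomal gene Litaf (-0.18 ± 0.064) and Nubp1 (0.11 ± 0.041), with limma adjusted p-values of 0.21, 0.21 and 0.23.

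On the distal side 1 of 20 fell and none rose: Abcc1, which encodes the drug and glutathione conjugate exporter MRP1, read 10.23 and 10.24 on the wild-type and 9.99, 9.95 and 10.04 on the Mkl2-/- arrays (-0.24 ± 0.031, limma adjusted p = 0.029). Marf1 (0.14 ± 0.045), Mzt2 (-0.10 ± 0.0325) and Cebpd (0.11 ± 0.04) followed with limma adjusted p-values of 0.17, 0.18 and 0.23, Cebpd lying just below background. The median difference was 0.023 over the 20 proximal genes and 0.001 over the 20 distal ones. Of all 46 measured non-members, 37 of them above background, 2 passed (4.35%, against 9.27% over all genes and 12.9% over genes above background). Members, chosen partly by their differences, are left out of this share, so nothing is read from it. With single Mkl2-/- arrays left out, Abcc1 never passed and Tekt5 passed only without Mkl2-/- replicate 1. Of the remaining 592 measured genes of chromosome 16, 22 rose and 24 fell, with a median of 0.027.

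**Figure D3:**
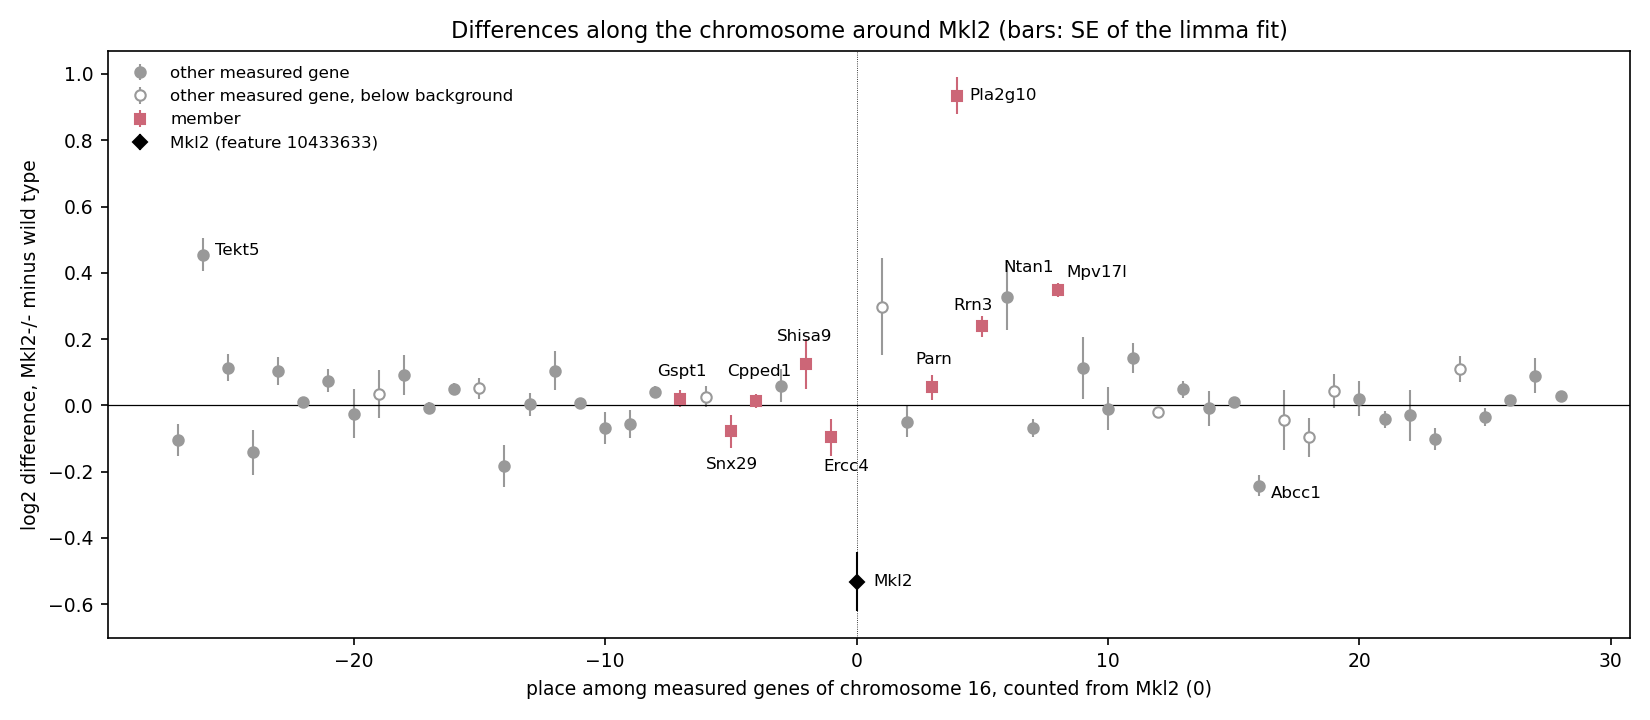
Log2 difference (Mkl2-/- minus wild type, bars are SE) against the place of each measured gene on chromosome 16, counted from Mkl2; squares are members, open circles are genes below background. Pla2g10, Rrn3 and Mpv17l stand at places 4, 5 and 8 on the distal side, with Parn and Pdxdc1 closer to 0; Abcc1, at place 16, lies at -0.24.

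Genes elsewhere whose 5 values ran most like those of Pla2g10, the member with the largest difference, were sought outside chromosome 16. By the root mean square distance of log2 values centred on each gene's mean over 5 arrays, these were Fam83h (0.034), Ap1m2 (0.042) and Tfpi (0.043). They differed by 0.91 ± 0.034, 0.96 ± 0.05 and 0.95 ± 0.016. With 2 groups of arrays, likeness mostly reflects a difference of similar size.

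Partner lists, fixed for genes that work with the members' proteins or belong to their families, were examined beside them. Over the 101 measured partners, 1 rose and 11 fell (11.9%, against 9.27% over all genes), with a median difference of 0. Of these partners 96 lay above background, and over all genes above background 12.9% passed, so the partners' share was near that of genes at such levels. The 12 calls came down to 1, 0 and 2 without Mkl2-/- replicates 1, 2 and 3, and to 6 and 0 without wild-type replicates 1 and 2. These lists were chosen with earlier results known. So were the members, and nothing is read from a member's difference being larger than those of its list.

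Among partners of the proximal members, 0 of 7 translation termination genes passed (limma, 1 with an unadjusted p under 0.05), with a median of -0.01; the ribosome recycling gene Abce1 differed by -0.07 ± 0.017 (limma adjusted p = 0.11), the poly(A)-binding protein gene Pabpc1 by 0.03 ± 0.02 and Smg1 by -0.02 ± 0.025. Gspt1 and its partners were thus all within 0.07 of 0. Of 31 sorting nexin genes 3 fell and none rose (9.68%, median -0.05). Snx6, a retromer nexin, fell by 0.76 on the log2 scale (SE 0.0735, limma adjusted p = 0.017), while Snx30 (-0.19) and Snx33 (-0.30) fell less.

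In the Shisa family 4 of 6 measured relatives of Shisa9 fell and none rose (66.7%, against 9.27% over all genes and 12.9% over genes above background), with a median of -0.30. Shisa6, an AMPA receptor partner like Shisa9, read 8.62 and 8.81 on the wild-type and 8.10, 8.08 and 7.97 on the Mkl2-/- arrays, and fell 1.59-fold (-0.665 ± 0.078, limma adjusted p = 0.024). Shisa3, known to restrain Wnt signalling, fell 1.51-fold (-0.595 ± 0.071), Shisa5 1.33-fold (-0.415 ± 0.044) and Shisa4 1.13-fold (-0.18 ± 0.023). Shisa9 itself, beside Mkl2, differed by 0.125 with overlapping groups.

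Of 15 nucleotide excision repair genes that accompany Ercc4, 2 fell and none rose (13.3%, median 0.04). The lesion-sensing genes Rad23b (-0.385 ± 0.035, limma adjusted p = 0.016) and Xpc (-0.32 ± 0.053, limma adjusted p = 0.047; 0.066 in the fit of all features), whose products form a complex, were the 2 that fell. Xpa differed by -0.12 ± 0.03 (limma adjusted p = 0.10).

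Among partners of the distal members, 1 of 13 deadenylase genes fell and none rose (7.69%, median -0.03). It was Angel2 (-0.31 ± 0.049, limma adjusted p = 0.043; 0.062 in the fit of all features), while Pde12, which acts in mitochondria, differed by 0.06 ± 0.012 and Cnot7, a CCR4-NOT nuclease gene, by -0.17 ± 0.044 without passing, though its limma adjusted p was 0.033 after cyclic loess. Of 11 relatives of Pla2g10 among the phospholipases A2, 1 rose and none fell (9.09%, median 0.05): Pla2g5 by 0.225 ± 0.037 (limma adjusted p = 0.047; 0.067 in the fit of all features). Pla2g1b differed by 0.30 ± 0.067 without passing (limma adjusted p = 0.089), though it passed after cyclic loess (0.031) and quantile normalization (0.027), and the lysosomal Pla2g15 by -0.075 ± 0.039. The largest of these relatives' differences was 0.297, against 0.935 in Pla2g10. Only 7 of the 11 relatives lay above background, so the others give no usable difference.

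In RNA polymerase I initiation, 1 of 15 genes fell and none rose (6.67%, median 0.093). Polr1a, the gene of the enzyme's largest subunit, read 10.98 and 10.93 on the wild-type and 10.42, 10.42 and 10.35 on the Mkl2-/- arrays, and fell 1.47-fold (-0.56 ± 0.0325, limma adjusted p = 0.0082). Taf1d (0.26 ± 0.052) and Ubtf (0.16 ± 0.034), whose products act at the same promoters as Rrn3, differed upwards without passing (limma adjusted p = 0.07 and 0.076). Both passed after quantile normalization (limma adjusted p = 0.025 and 0.031), but not in the fit of all features (0.094 and 0.10). With its features averaged, Taf1d differed by 0.18 (limma adjusted p = 0.22). Of the 3 other Mpv17 family genes none passed in limma and 1 had an unadjusted p under 0.05: Pxmp2 differed by 0.11 ± 0.0395, Mpv17l2 by 0.05 ± 0.0325 and Mpv17 by -0.02 ± 0.019, each nearer to 0 than Mpv17l.

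**Figure D4:**
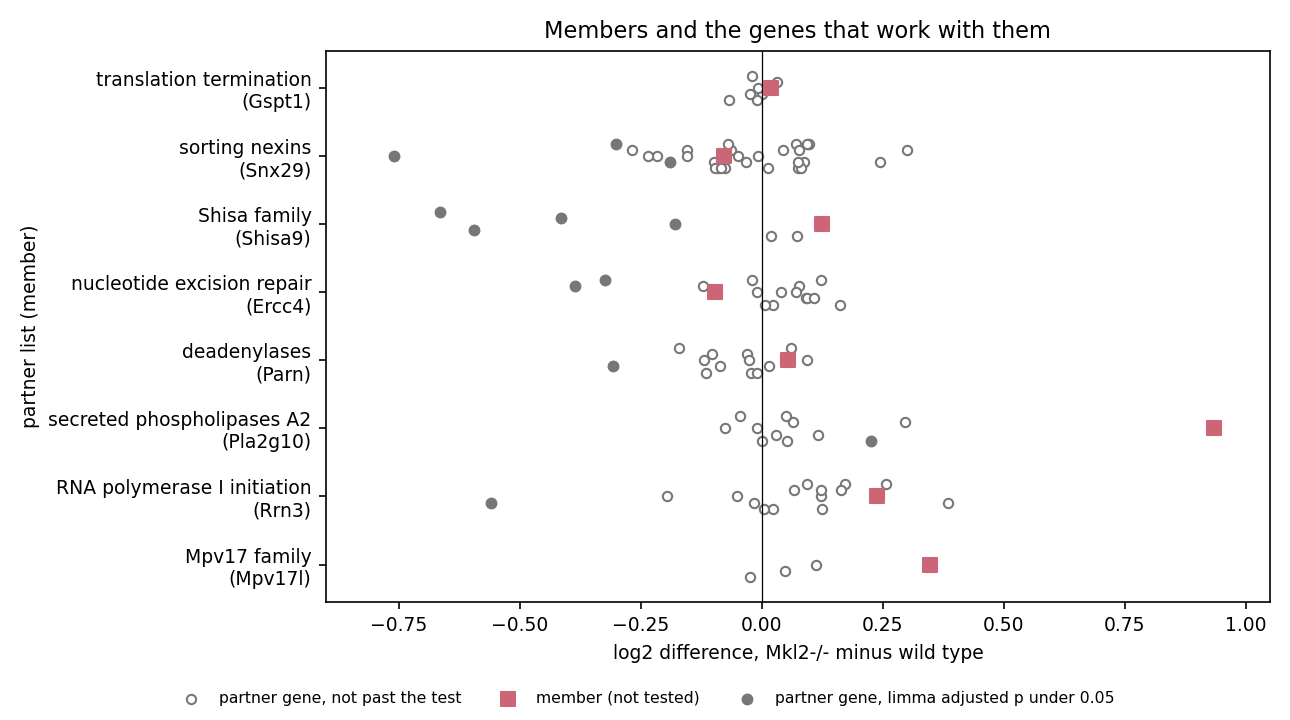
Log2 difference (Mkl2-/- minus wild type) of 8 members (squares) and of each measured gene of their partner lists (circles; filled where the limma adjusted p is under 0.05); Cpped1 had no list. Pla2g10 and Mpv17l lie to the right of every gene of their lists, and 4 of 6 Shisa relatives fell while Shisa9 lies at 0.125. Genes below background are not marked, and only 7 of the 11 phospholipase A2 relatives lay above it.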

How the data were processed

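The deposited table holds log2 intensities, which the authors computed by RMA (Affymetrix Expression Console 1.1), as the submitters' processing notes state; other settings or batches were not given in the sources used here. They run from 3.39 to 14.26 with array medians of 7.94 to 7.98, and 0 columns of per-sample values were unused. RMA shrinks differences of dim features. The platform annotation named 1 gene for 21789 features, more than 1 for 1621 and none for 12146, and 21698 matched RefSeq (GRCm38.p6) by Entrez identifier. That table gave the order of genes. The only coordinates printed are those of the promoter stretches (GRCm38.p6), since the annotation's build is not given. The feature with the highest mean stood for a gene (19938 genes, 13564 above background). Groups were compared with limma 3.58.1 in R 4.3.3 (lmFit, eBayes, 3 residual and 0.885 prior degrees of freedom, Benjamini-Hochberg over all genes, two-sided), after a check on simulated data. The number of arrays limits the precision.

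The members and lists were chosen with earlier results of these data known. Named by rule were the members and Mkl2 with every feature and the non-members between them. So were, by smallest p, 4 genes beyond each end and 3 per partner list, and 3 genes most like Pla2g10. Shisa4, Nanog, Fgf4, Dppa5a and Utf1 were added after their values were seen. Alternatives were cyclic loess, quantile normalization, genes above background, trend and robust moderation, averaging a gene's features, fitting all features, the replicate block and each array left out.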

Additional observations from a re-analysis of the deposited data

How the results depend on the processing

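The 9 members' differences moved by less than the spread within groups in 103 of 108 recomputations; the others were Snx29 as the mean of its features, Cpped1 after quantile normalization, and Mpv17l after quantile normalization (0.39) and without either wild-type array (0.37 and 0.32). Many of these recomputations could not move a difference. Fitting only genes above background, trend and robust moderation and fitting all features change the test but not the difference. Averaging features changes nothing for a member with a single feature. The replicate block gave the same differences as leaving out Mkl2-/- replicate 3. With the same limit, the side medians stayed between 0 and 0.023 (proximal) and between 0.268 and 0.318 (distal) under every alternative run. Counts of calls depended on the settings. Against 1848 calls (596 higher, 1252 lower), cyclic loess gave 2949 (970 and 1979) and quantile normalization 2906 (1254 and 1652), with 19 partner genes in place of 12 after cyclic loess. With single arrays left out, calls ran from 0 to 963 (0 to 473 higher, 0 to 490 lower), from 0 to 1 among non-members near Mkl2 and from 0 to 6 among partner genes; such fits also have fewer arrays. The replicate block, fitted on replicates 1 and 2 of each group, gave 0 calls over all genes, in either direction, near Mkl2 and among partners (limma, 3827 genes with an unadjusted p under 0.05, smallest adjusted p 0.16). Arrays share only a number there. Deviations of same-numbered arrays correlated at -0.20 and 0.19, and neither wild-type array went best with its own number. The highest correlation was 0.31, between wild-type replicate 1 and Mkl2-/- replicate 3. With 2 wild-type arrays their deviations mirror each other, so these are not separate checks and cannot settle whether arrays were paired. No called gene among the named genes that were recomputed reversed its direction. Shisa4, Nanog, Fgf4, Dppa5a, Utf1 and the genes most like Pla2g10 were not recomputed. Depth is not defined for arrays; dim genes at the background level of 7.30 give no usable difference.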
